A study of Mus musculus with 6 samples.

Results

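Chaperones and the unfolded protein response were examined in the livers of 6 male mice, through 40 genes that either fold proteins or signal that folding has failed. The members were listed by name, and each was found on the array through the RefSeq accession of its probes. All 40 were present among 22911 genes with a symbol, each read by its brightest probe. They comprise 15 chaperones and folding enzymes of the endoplasmic reticulum (ER), 4 sensors and factors of the unfolded protein response (UPR), 6 genes of ER disposal and translocation, 12 cytosolic heat shock genes, the heat shock factor Hsf1 and 2 mitochondrial chaperonins.

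The control group was 3 mice given regular granulated chow only. The soy group was 3 mice whose chow was 75% regular food and 25% soy bean powder. Both diets lasted 28 days (4 weeks) from the age of 12 weeks, and neither the labels nor the methods used here give the strain or the hour of death. RNA from the right liver lobe of each mouse was hybridized to 1 single-colour Agilent mouse array, and all RNA had an integrity number above 8. The labelled tissue was borne out by its markers, since all 8 hepatocyte genes checked (among them Alb, Apoa1 and Ttr) were well above background on all 6 arrays.

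The ER folds secreted and membrane proteins, of which the liver makes very large amounts. When unfolded protein builds up there, the sensors IRE1 (Ern1), PERK (Eif2ak3) and ATF6 release the chaperone BiP (Hspa5), and the factors XBP1 and ATF6 then bind the ER stress response element (ERSE) in the promoters of ER chaperone and disposal genes. The cytosol has a separate system, in which the factor HSF1 binds heat shock elements (HSE) and raises HSP70, HSP40 and small heat shock genes.

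These elements can be seen in the promoters of the members, and the stretches below are shown because they hold the letters that these factors are known to bind. Promoter sequences came from RefSeq (GRCm38.p6), which held 32 of the 40 members, and the 250 bases before each gene start were searched on both strands. The ERSE was searched as CCAAT followed after 9 bases by CCACG, and it is in capitals, with 20 bases on each side where the promoter allowed. In the opposite strand it reads as CGTGG, then 9 bases, then ATTGG.
Hspa5 (chr2:34772005-34772063, plus strand): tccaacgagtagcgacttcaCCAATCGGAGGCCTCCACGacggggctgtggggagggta
Hsp90b1, upstream copy (chr10:86705618-86705676, minus strand): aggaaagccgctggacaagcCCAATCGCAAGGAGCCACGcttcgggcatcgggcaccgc
Hsp90b1, downstream copy (chr10:86705513-86705571, minus strand): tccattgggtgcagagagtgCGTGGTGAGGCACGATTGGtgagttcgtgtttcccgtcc
Creld2 (chr15:88819500-88819558, plus strand): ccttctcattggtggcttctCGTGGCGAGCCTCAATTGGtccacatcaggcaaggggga
Derl3 (chr10:75893222-75893280, plus strand): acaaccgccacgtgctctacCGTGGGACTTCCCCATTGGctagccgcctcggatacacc
Syvn1 (chr19:6046512-6046570, plus strand): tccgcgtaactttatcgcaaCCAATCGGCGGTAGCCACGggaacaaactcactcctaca

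Of the ER chaperones with a promoter in the table, 8 of 13 held this ERSE (Calr, Canx, Creld2, Dnajc3, Ero1b, Hsp90b1, Hspa5 and Pdia6), as did 2 of 6 disposal genes (Derl3 and Syvn1). None of the 8 cytosolic heat shock genes with a promoter held it. Over the whole table the same letters were found in 37 of 32851 promoters (0.113%). The UPR element TGACGTGG was found in none of the 32 members and in 0.563% of all promoters. No match says only that these letters are not in this window.

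The full HSE was searched as 3 alternating GAA and TTC units set 2 bases apart, which was found in 0.466% of promoters. Its shorter form of 2 units, GAANNTTC, lies within the full element and was found in 6.69%. The units in the other order, TTCNNGAA, also lie within it and were found in 7.17%. Both shorter forms were added after the matches of the full element had been seen. In the lines below the matches of the full element or of GAANNTTC are in capitals.
Hspa1b (chr17:34959315-34959362, minus strand): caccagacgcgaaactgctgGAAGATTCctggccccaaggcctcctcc
Hspa1a (chr17:34972233-34972280, minus strand): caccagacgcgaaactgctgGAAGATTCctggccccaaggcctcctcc
Dnaja1 (chr4:40722324-40722371, plus strand): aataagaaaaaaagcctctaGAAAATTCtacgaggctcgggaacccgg
Hspb1 (chr5:135887782-135887849, plus strand): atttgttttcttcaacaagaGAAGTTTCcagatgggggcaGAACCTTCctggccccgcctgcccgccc
Hspe1 (chr1:55088039-55088096, plus strand): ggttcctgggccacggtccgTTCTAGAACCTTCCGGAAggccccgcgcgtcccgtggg

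Among members, the full element was found only in the stretch that Hspe1 shares with its neighbour Hspd1, which are transcribed away from each other, and there it matched in 2 overlapping places. Of the 8 cytosolic genes with a promoter, GAANNTTC was in 4 and TTCNNGAA in 1, Hsph1. The Hspa1a and Hspa1b stretches carry the same letters throughout. These genes are near-identical copies in their coding parts as well, so their probes may each catch RNA of both genes, and their values below are not separate evidence.

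All 40 members were well above background on all 6 arrays, and none of their 69 probes was saturated. Of all 22911 genes, 13513 were well above background on all 6 arrays. The shares of all genes given below thus include many genes that were not, unlike the members. Values are log2 signals after background correction and quantile normalization, and a change is the soy mean minus the control mean. A gene passed when its limma p, adjusted over all probes by the Benjamini-Hochberg method, was under 0.05 and its soy to control fold was also above 1.5 or below 0.66. By this rule 0 of the 40 members passed in limma, whereas 105 of all 22911 genes did (0.458%). At an unadjusted limma p under 0.05, with no correction for the number of genes, 10 members (25.0%) were lower and 1 was higher in soy, against 7.02% of all genes lower and 7.21% higher. Groups that did not overlap, so that every soy array lay below every control array, were found for 9 members (22.5%) against 10.8% of all genes. Every soy array lay above every control array for 0 members, against 9.68% of all genes. In whole liver, fewer cells of a type and less RNA per cell cannot be told apart.

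The array called control 1 stood apart in the heat shock genes. It was the highest of the 6 arrays for 11 of the 12 cytosolic heat shock genes, compared with 3 of the 15 ER chaperones and 4934 of the 22911 genes. The main results are therefore also given without it. With control 1 left out, 6 members were lower and 2 higher at an unadjusted limma p under 0.05, against 5.98% of all genes lower and 6.29% higher. Groups without overlap were then found for 11 members lower and 3 higher in soy, against 15.8% and 15.2% of all genes. Control 1 also had the least signal for markers of Kupffer cells, the macrophages of the liver, being the lowest array for 6 of the 8. The summed signal of these 8, all well above background on every array, was 38044, 53522 and 62521 in control and 48206, 57837 and 71233 in soy. The brightest probe among them was that of Csf1r on control 1 and that of Cd5l on the other arrays. Their median change was 0.19, and 0.02 without control 1. The median of 7 stellate cell markers, measured from the control mean, was 0.28 on control 1 and negative on every other array. That of 7 endothelial markers was 0.05 on control 1, but 1 of them, Lyve1, read 11.16, 9.23 and 9.32 in control and 9.49, 8.89 and 9.35 in soy. The part of these cells in the heat shock values was not tested. The number of spots well above background also moved with the group, from 36366 to 38163 in control but only 31308 to 32498 in soy, and its part in the results was not tested.

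Of the 12 cytosolic heat shock genes 0 passed, and 10 had a negative change, compared with 11723 of the 22911 genes. In 7 of the 12 each soy array lay below each control array, against 10.8% of all genes, and in 0 each soy array lay above, against 9.68%. The groups overlapped in the other 5. The median change of the 12 was -0.42, compared with -0.01 over all genes. Without control 1 the median was -0.30, and 7 of 12 were lower without overlap, against 15.8% of all genes. With control 1 left out, 5 of the 12 were lower at an unadjusted limma p under 0.05 and 1, Hspb1, was higher. Of all genes 5.98% were lower and 6.29% higher by this measure. The list holds HSP70, HSP40 and small heat shock genes, which HSF1 is known to raise. The 7 genes are therefore not taken as 7 separate observations, and the part of HSF1 in these values was not tested.

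**Figure D1:**
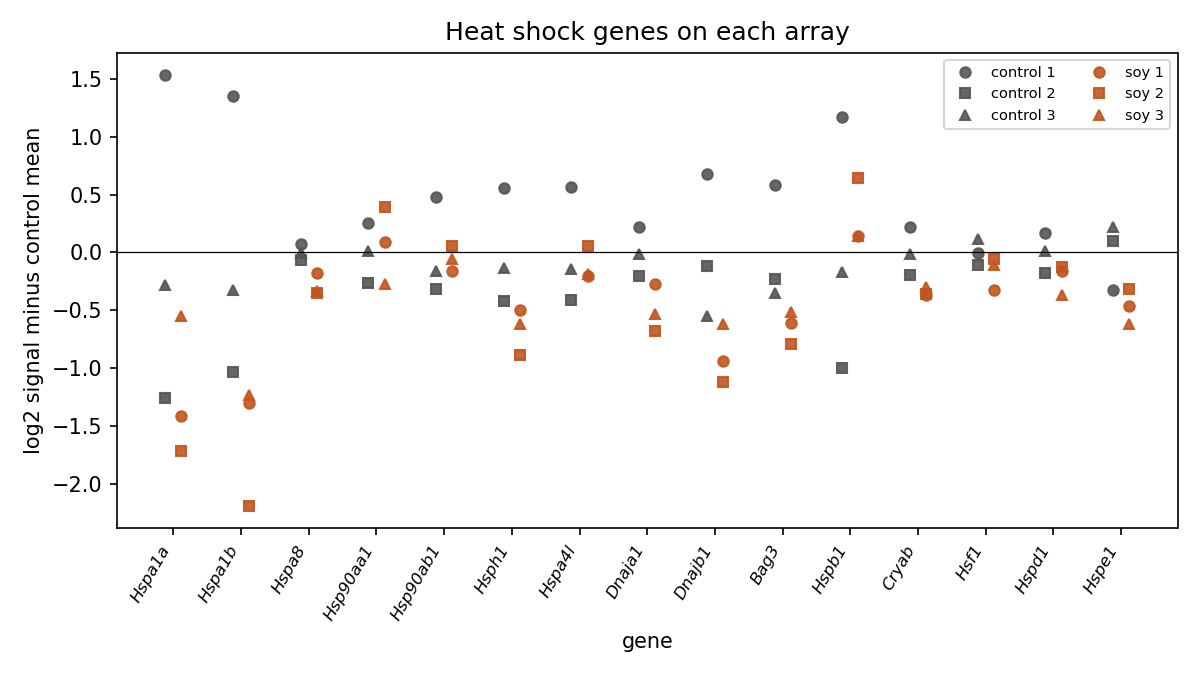
Log2 signal of each heat shock member minus the mean of its 3 control arrays (y axis), by gene (x axis). Grey marks are control arrays, orange marks are soy arrays, and the shape gives the array number. The grey circle of control 1 is the highest mark in 11 of the 12 cytosolic genes and lies farthest above the rest in Hspa1a and Hspa1b, and the 3 orange marks lie below all grey marks in 7 of the 12 cytosolic genes, which run from Hspa1a to Cryab.

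Hspa1b encodes an inducible HSP70, which holds and refolds damaged proteins, and it had the most negative change of the 40. Its signal was 13.79, 11.40 and 12.11 in control livers and 11.13, 10.24 and 11.20 in soy livers. The soy arrays all lay below the lowest control array, but only narrowly, and control 1 was far above the rest. The change was -1.58 (SE 0.57, 95% interval -2.90 to -0.26), a fold of 0.335, with a limma adjusted p of 0.346. Without control 1 it was -0.90 with a limma adjusted p of 0.476, so the size of the change depends on that array. Its copy Hspa1a had signals of 12.64, 9.85 and 10.82 in control and 9.69, 9.38 and 10.55 in soy. Here the groups overlapped, since soy 3 lay above control 2. The change was -1.23 (SE 0.65) and, without control 1, -0.46.

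The HSP40 partners hand substrates to HSP70 and start its ATP cycle, and neither Dnajb1 nor Dnaja1 passed. Dnajb1 read 14.39, 13.59 and 13.16 in control livers and 12.77, 12.59 and 13.10 in soy livers. The groups were separated by a small gap between control 3 and soy 3. Its change was -0.89 (SE 0.30, limma adjusted p 0.304) and -0.56 without control 1. Dnaja1 read 16.32, 15.89 and 16.08 in control and 15.83, 15.42 and 15.56 in soy, with no array of soy reaching the lowest control. Its change of -0.50 (SE 0.15) had the smallest adjusted p of the 40 members (limma, 0.270), and it was -0.39 without control 1. The other 2 probes of Dnaja1 were lower without overlap too, at -0.85 and -0.44, and the first of these had the smallest adjusted p of any member probe (limma, 0.081).

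Hsph1, an HSP110 that releases nucleotide from HSP70, read 14.71, 13.73 and 14.02 in control and 13.65, 13.27 and 13.53 in soy. Control 2 and soy 1 were close, and control 1 was high. The change was -0.67 (SE 0.24, limma adjusted p 0.351) and -0.39 without control 1. All 3 of its probes were lower without overlap. Bag3, a co-chaperone that links HSP70 to autophagy, read 14.16, 13.35 and 13.22 in control and 12.96, 12.78 and 13.06 in soy, a change of -0.64 (SE 0.24, limma adjusted p 0.364). Control 1 was again the high array, and without it the change was -0.35.

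Hspa8 and Cryab had small differences without overlap. Hspa8, the constitutive HSP70 of the cytosol, read 16.70, 16.55 and 16.61 in control and 16.44, 16.27 and 16.28 in soy, a change of -0.29 (SE 0.10, limma adjusted p 0.329) and of -0.25 without control 1. Its 4 probes were all lower without overlap, at -0.29 to -0.56. Cryab, a small heat shock protein of the crystallin family, read 10.49, 10.08 and 10.26 in control and 9.91, 9.91 and 9.97 in soy, a change of -0.34 (SE 0.12, limma adjusted p 0.349) and of -0.24 without control 1. Control 1 was the highest array in both genes, and the control arrays lay closer together in Hspa8 than in Cryab.

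The other 4 cytosolic members were Hsp90aa1, Hsp90ab1, Hspa4l and Hspb1, with changes from -0.11 to 0.31 and overlapping groups. The HSP90 pair keeps kinases and hormone receptors in a form that can be activated. Hsp90aa1 had a change of 0.07 (95% interval -0.39 to 0.53) and Hsp90ab1 of -0.05 (95% interval -0.52 to 0.42). Without control 1 the small heat shock gene Hspb1 was 0.89 higher in soy and Hsp90ab1 0.19 higher, both without overlap. Hspb1 had a change of -0.19 without control 2, so its direction rested on which control array was kept. Without control 1, 7 members of the list lay lower and 2 higher in soy on every array, against 15.8% and 15.2% of all genes.

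Hsf1, the factor itself, read 10.81, 10.70 and 10.93 in control and 10.48, 10.76 and 10.70 in soy. The groups overlapped, with a change of -0.16 (SE 0.12, limma adjusted p 0.646). Hsf1 is controlled mostly through its protein, which the arrays do not measure.

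The mitochondrial chaperonins, which form the folding cage of the matrix, had negative changes in both members. Hspe1 (HSP10, the lid) read 15.77, 16.20 and 16.32 in control and 15.63, 15.78 and 15.48 in soy. Here control 1 was the low array of its group, opposite to its place in the cytosolic genes, and soy 2 just exceeded it. The change was -0.47 (SE 0.16, limma adjusted p 0.325) and -0.63 without control 1. The other 2 probes of Hspe1 did not overlap, with changes of -0.52 and -0.50. Hspd1 (HSP60, the cage) read 16.30, 15.96 and 16.15 in control and 15.98, 16.02 and 15.77 in soy. The groups overlapped, with a change of -0.22 (SE 0.13, limma adjusted p 0.568) that was -0.14 without control 1. Its second probe did not overlap, with a change of -0.34.

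The median change of the 15 ER chaperones was -0.05, and 0 passed, with 9 of 15 negative, 6 positive and 13 of 15 smaller than 0.25 in size. Hspa5, the BiP that the UPR sensors read, was 16.62, 16.31 and 16.45 in control and 16.61, 16.44 and 16.19 in soy. The arrays of the groups were interleaved, and the 95% interval of the change ran from -0.37 to 0.28. Hsp90b1 (GRP94, the HSP90 of the ER) had a change of -0.02 (95% interval -0.33 to 0.30). Calr and Canx, the lectins that hold glycoproteins for folding, had changes of 0.03 and 0.13. The disulfide isomerases Pdia3, Pdia4 and Pdia6 had changes of 0.05, 0.20 and -0.14, all with overlapping groups. With 3 arrays in each group, the 95% intervals of Hspa5, Hsp90b1, Calr and Pdia3 leave room for changes of 0.25 and more in either direction. Those of Canx (-0.10 to 0.36), Pdia4 (-0.21 to 0.61) and Pdia6 (-0.44 to 0.16) do so only in the direction of their change.

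**Figure D2:**
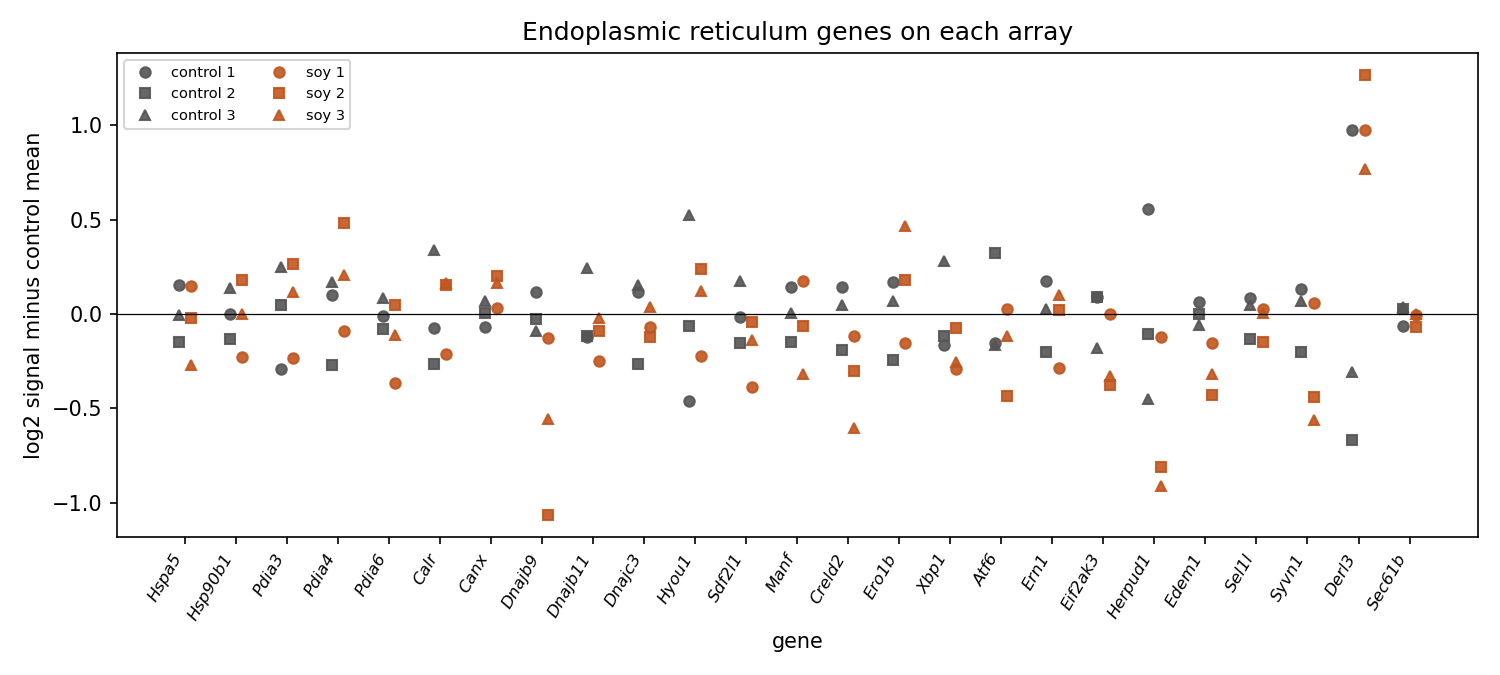
Log2 signal of each ER member minus the mean of its 3 control arrays (y axis), by gene (x axis). Grey marks are control arrays, orange marks are soy arrays, and the shape gives the array number. Most ER chaperones (Hspa5 to Ero1b) have interleaved marks within about 0.5 of the control mean, Dnajb9 lies lower in soy, and Derl3 has control 1 among the soy arrays.

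Dnajb9 was the ER chaperone with the most negative change and the only 1 of the 15 without overlap, against 10.8% of all genes lower and 9.68% higher. It encodes ERdj4, a J protein of the ER lumen that holds BiP on IRE1 and is itself a target of spliced XBP1. Its signal was 13.47, 13.32 and 13.26 in control and 13.22, 12.29 and 12.79 in soy. Soy 1 lay just under the lowest control, and soy 2 and soy 3 lay well below. The change was -0.58 (SE 0.22, limma adjusted p 0.368), and it was -0.53 without control 1. With each array left out in turn it ran from -0.81 to -0.34. A dimmer probe of the gene overlapped, with a change of -0.16.

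Creld2, an ER disulfide isomerase-like gene, read 15.72, 15.39 and 15.62 in control and 15.46, 15.27 and 14.97 in soy. The groups overlapped through soy 1, and the change was -0.34 (SE 0.15, limma adjusted p 0.455). With each array left out in turn it ran from -0.45 to -0.21. Sdf2l1, which works with the J proteins of the ER, read 12.73, 12.60 and 12.93 in control and 12.37, 12.71 and 12.61 in soy, a change of -0.19 (SE 0.13) with overlap. Of the ERSE carriers shown above, Hspa5, Hsp90b1, Creld2, Derl3 and Syvn1 had changes of -0.05, -0.02, -0.34, 1.00 and -0.32. The carriers not shown, Calr, Canx, Dnajc3, Ero1b and Pdia6, had changes of 0.03, 0.13, -0.05, 0.16 and -0.14. The carriers thus did not share a direction or a size.

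The 4 UPR sensors and factors had changes from -0.24 to -0.06, with a median of -0.19, and the groups overlapped in all 4. Eif2ak3 (PERK, which slows translation) read 10.13, 10.13 and 9.86 in control and 10.04, 9.66 and 9.71 in soy, a change of -0.24 (SE 0.14, limma adjusted p 0.579). Xbp1, whose RNA is spliced by IRE1, read 15.58, 15.63 and 16.02 in control and 15.45, 15.67 and 15.49 in soy, a change of -0.21 (SE 0.14). Atf6 read 10.73, 11.21 and 10.72 in control and 10.91, 10.45 and 10.77 in soy, a change of -0.17 (SE 0.18). In Xbp1 the difference came mainly from control 3, and in Atf6 from control 2. The arrays do not separate spliced from unspliced Xbp1, nor cleaved from whole ATF6, so they do not measure the activity of these branches.

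The disposal genes, which return misfolded proteins to the cytosol for degradation, formed an uneven list, with changes from -0.62 to 1.00 and a median of -0.17. Edem1, a lectin-like gene that marks glycoproteins for disposal, read 12.86, 12.80 and 12.74 in control and 12.64, 12.37 and 12.48 in soy. It was lower without overlap, with a change of -0.30 (SE 0.11, limma adjusted p 0.342) and of -0.27 without control 1. Its second probe overlapped, with a change of -0.11. Herpud1, a membrane part of the disposal complex, read 16.56, 15.90 and 15.55 in control and 15.87, 15.19 and 15.09 in soy. Control 1 was the highest array, and the groups overlapped, with a change of -0.62 (SE 0.29, limma adjusted p 0.481) that was -0.34 without control 1. Its second probe overlapped too, with a change of -0.82. Syvn1 (HRD1, the ubiquitin ligase) had a change of -0.32, Sel1l (its partner) of -0.04 and Sec61b (a subunit of the translocon) of -0.02. With each array left out in turn the change of Syvn1 ran from -0.50 to -0.19. A dimmer probe of Sel1l differed from the brightest one and was higher in soy without overlap, by 0.42, and a dim probe of Dnajb11 was lower without overlap, at -1.28, whereas its brightest probe had a change of -0.12.

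Derl3 was the only member with a signal higher in soy at an unadjusted limma p under 0.05. It belongs to the derlin channel of ER disposal, and is known as a strongly inducible UPR target and a gene of secretory cells. It read 11.13, 9.48 and 9.85 in control and 11.13, 11.42 and 10.92 in soy. Control 1 sat among the soy arrays, and the other 2 control arrays were more than a log2 unit below them. The change was 1.00 (SE 0.39, 95% interval 0.10 to 1.90), a fold of 2.00, with a limma adjusted p of 0.382. Without control 1 it was 1.49 with a limma adjusted p of 0.057, which still did not pass. It is thus the member whose adjusted p came nearest to the threshold when control 1 was left out.

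Markers of plasma and B cells and of the pancreas were read beside Derl3. Among 6 plasma and B cell markers, 3 lay higher on every soy array (against 9.68% of all genes), the third being Tnfrsf17, which defines plasma cells and which no array read well above background. Of these Cd79b (change 1.31) and Ms4a1 (0.93) passed in limma over 6 arrays, with limma adjusted p values of 0.062 to 0.144 once any array was left out. The plasma cell gene Jchain, whose probe was the brightest of the list on the control arrays but not on the soy arrays, had a change of -0.48. Without control 1 the change of Jchain was -0.90, lower without overlap, against 15.8% of all genes. The summed signal of the 6 was 840, 1216 and 1549 in control and 1287, 1564 and 1480 in soy, and was lowest on control 1, where Derl3 was highest among the controls. Of 9 pancreas markers, 3 were lower without overlap and none higher (against 10.8% and 9.68% of all genes), and their summed signal, in which the Cela1 probe was the brightest on each array, was 36972, 53170 and 44304 in control and 27614, 32579 and 24595 in soy. Prss1, Cpa1, Pnlip and Reg1 of that list were dim in both groups. Each was well above background on only 2 of the 3 control arrays and on 0 soy arrays. The part of these cells in the Derl3 value was not tested. Of 40 markers in 6 lists of other liver and blood cells (Kupffer, endothelial, stellate, bile duct, red cell and neutrophil, and fat cells), 0 passed in limma. Without overlap 2 were lower and 1 was higher, against the same shares of all genes. Of the 8 hepatocyte markers 0 passed, 6 had a negative change and the median was -0.10. Their changes ran from -0.76 (Tat, highest on control 1 and -0.52 without it) to 0.46 (Apob). Only Cps1, at -0.47, was lower without overlap, against 10.8% of all genes. The part of hepatocytes in the heat shock values was not tested.

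**Figure D3:**
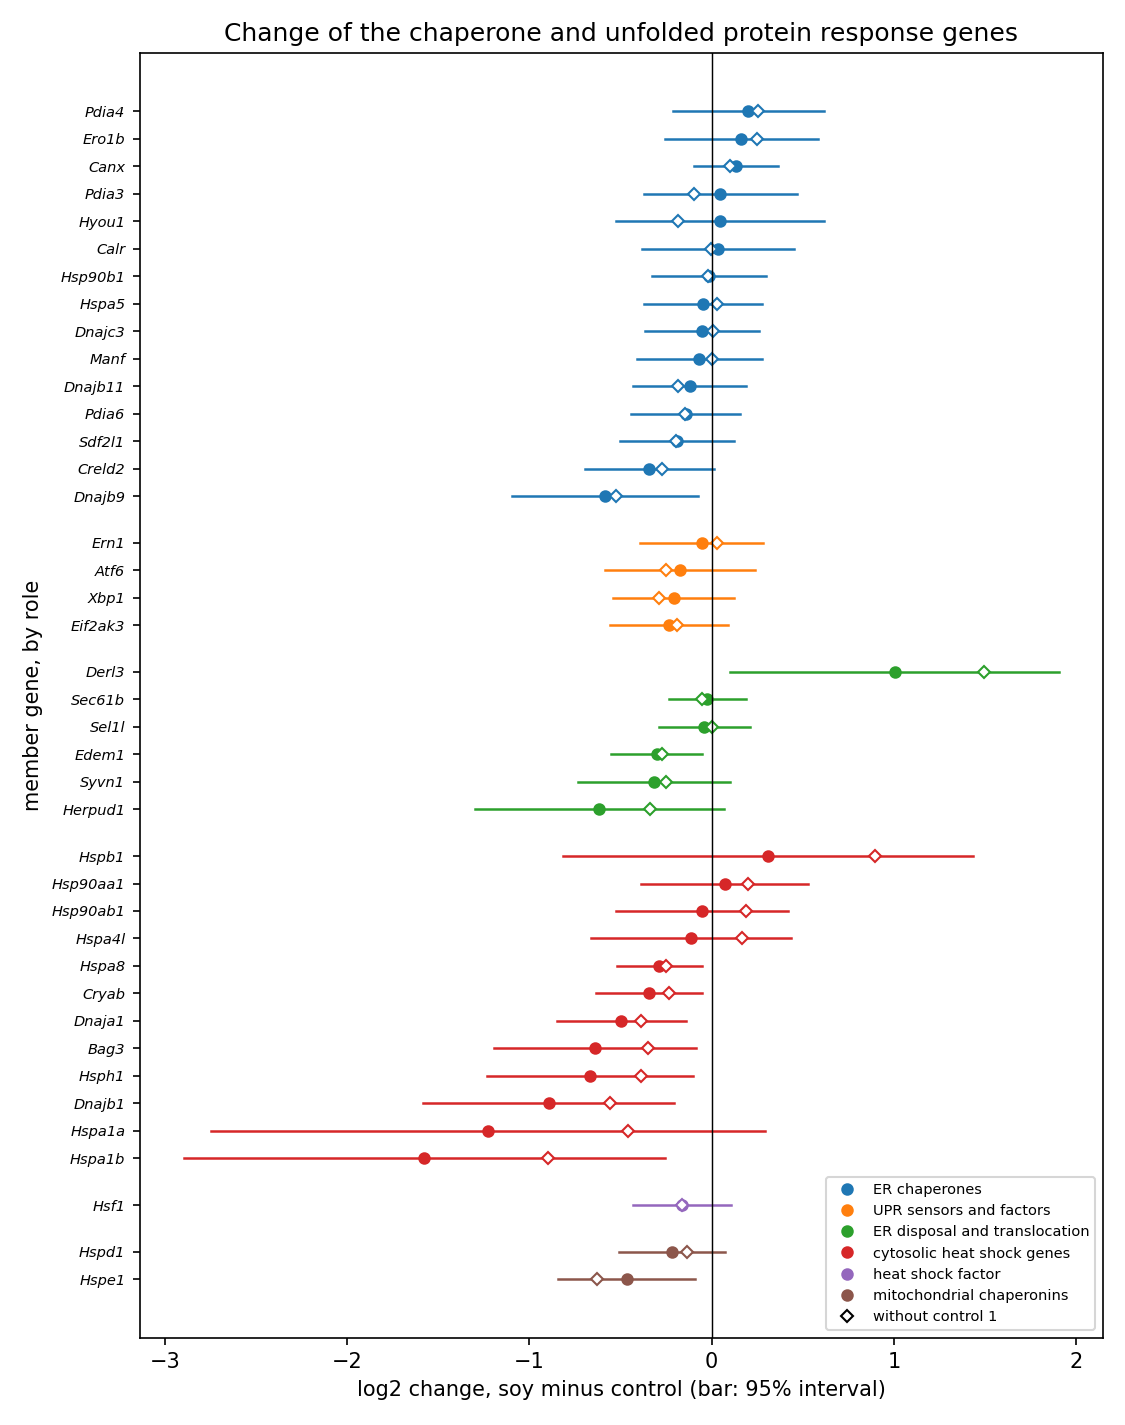
Log2 change of each of the 40 members, soy minus control (x axis), by gene and role (y axis). Filled circles are the change over all 6 arrays with its 95% interval, and open diamonds are the change without control 1. The ER chaperones gather around 0, and the cytosolic heat shock genes reach down to -1.58 (Hspa1b). The diamonds of Hspa1a, Hspa1b, Hspb1 and Derl3 lie far from their circles.

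The ER chaperones were then set against the cytosolic heat shock genes. The median change of the ER chaperones minus that of the cytosolic genes was 0.37, and it was 0.28 without control 1. Array by array, the ER median stood at -0.56, 0.14 and 0.29 relative to the cytosolic median in control and at 0.16, 0.57 and 0.42 in soy, each list being measured from its own control mean. The difference was positive on all soy arrays and on 2 of the 3 control arrays, and soy 1 lay below control 3, so the groups overlapped. The cytosolic list alone did not overlap, with medians of 0.56, -0.29 and -0.15 in control and -0.32, -0.52 and -0.43 in soy, but soy 1 and control 2 were close. The lists were chosen with earlier results of these data known, and no p is given for them.

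**Figure D4:**
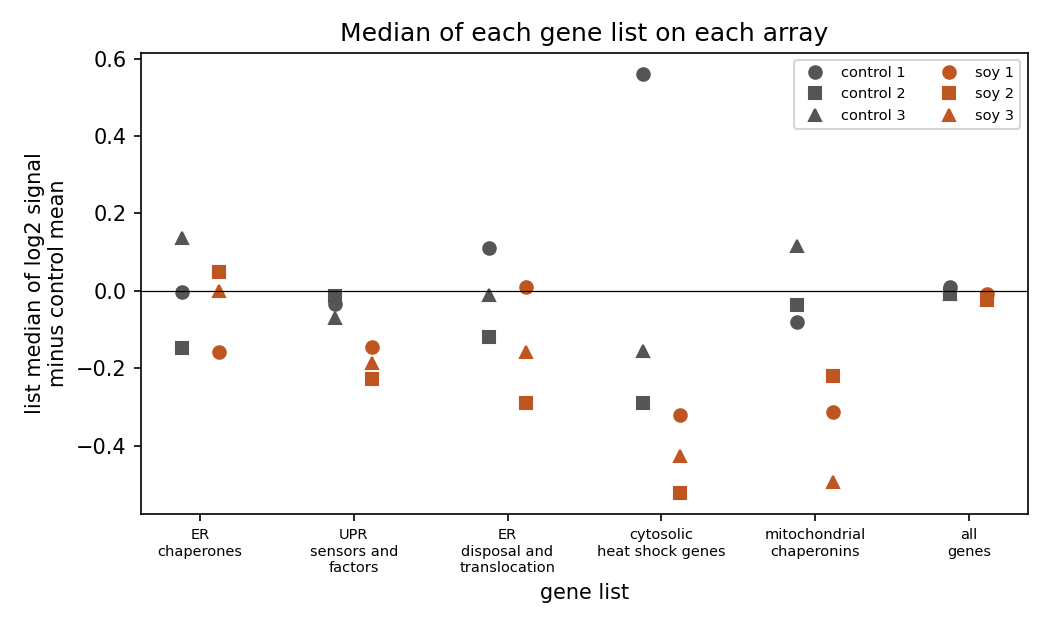
Median over each gene list of the log2 signal minus the control mean (y axis), by list (x axis), with 1 mark per array. Grey marks are control arrays and orange marks are soy arrays. In the cytosolic heat shock genes control 1 stands at 0.56 and the other arrays lie between -0.52 and -0.15, whereas the ER chaperones lie between -0.16 and 0.14 with the groups interleaved.

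The arrays lie on 3 slides, which give within-slide comparisons. Slide 1 held control 1, control 2 and soy 1, and there the cytosolic genes had a median change of -0.33 and the ER chaperones of -0.09. These values rest partly on control 1, and soy 1 minus control 2 alone gave medians of -0.09, with 8 of 12 lower, and 0.03. On slide 3, which held control 3 and soy 3, the medians were -0.27 and -0.20, so that the lists differed by only 0.08. Of the 12 cytosolic genes, 10 were lower in soy on slide 1 with both control arrays, and 10 on slide 3. Of the 15 ER chaperones, 10 were lower on slide 1 and 12 on slide 3. Over all 22911 genes, 11769 were lower on slide 1 with both control arrays and 11563 on slide 3. In soy 1 minus control 2 alone 11532 of all genes were lower. Slide 2 held soy 2 alone and gives no comparison. In a fit with the slide as a block, the median change of the ER chaperones was -0.12, with 12 of 15 lower. That of the cytosolic genes was then -0.36, with 11 of 12 lower, so the lists lay closer together than without the block.

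Other genes of these pathways were read from lists that hold none of the members. Among 17 other ER folding genes 0 passed, with a median change of -0.02. Txndc11, a thioredoxin-like ER gene, was lower without overlap, at -0.57 (SE 0.13, limma adjusted p 0.138). Serpinh1, the collagen chaperone HSP47 and an HSF1 target, was lower without overlap, at -0.68 (limma adjusted p 0.412), with control 1 as its highest array at 10.79, and it had a change of -0.33 without it. Of 22 other disposal and translocation genes 0 passed, and their median change was 0.00. The 2 with the smallest p, Ufd1 and Ubxn4, had changes of 0.21 and 0.19.

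Among 14 further UPR factors and PERK branch genes, 1 passed. Creb3l2 (BBF2H7), an ER-bound factor of the ATF6 type that raises secretory pathway genes, read 9.12, 9.07 and 8.87 in control and 8.19, 7.88 and 8.25 in soy. All soy arrays lay well below all control arrays, with a change of -0.91 (SE 0.13) and a limma adjusted p of 0.0473. With each of the 6 arrays left out in turn the change stayed between -0.99 and -0.80, but the limma adjusted p was 0.065 to 0.161 and the gene did not pass (without control 1, -0.86 and 0.116). Chac1, a target of the PERK branch that degrades glutathione, had a change of -0.54 with overlap (limma adjusted p 0.394).

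Of 28 other cytosolic chaperones measured (Dnajb5 was not found), 1 passed. Hspb8, a small heat shock protein that works with Bag3, read 14.22, 14.10 and 14.21 in control and 13.49, 13.42 and 13.50 in soy. The arrays of each group lay close together, and control 1 did not stand apart. The change was -0.70 (SE 0.09, a limma adjusted p of 0.0369), and it was -0.74 to -0.68 with each array left out in turn, where the limma adjusted p was 0.084 to 0.139 and the gene did not pass (without control 1, -0.68 and 0.093). Fkbp5, an HSP90 co-chaperone and glucocorticoid target, was lower without overlap, at -1.18 (SE 0.27, limma adjusted p 0.146). The median change of these 28 was -0.04, with 11 genes positive and 17 negative. Of 6 other mitochondrial chaperones 0 passed, and Lonp1 and Trap1, which had the smallest p, had changes of 0.24 and 0.15.

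Several heat shock genes are known to follow the daily rhythm of the liver, so clock genes were read on the same arrays. The median change of 6 clock genes that peak in the morning was 0.70, and 4 of them lay higher on every soy array (against 9.68% of all genes). For 10 that peak in the evening it was -0.70, and 4 lay lower on every soy array (against 10.8% of all genes). Of these 4, Bhlhe41 was well above background on 2 control arrays and on 0 soy arrays. Cirbp, an RNA-binding protein that rises as body temperature falls, was 9.27, 9.60 and 9.39 in control and 10.17, 9.97 and 10.27 in soy, a change of 0.71 without overlap (SE 0.13, limma adjusted p 0.081). Rbm3, which is known for the same behaviour, had a change of 0.10 with overlap. Of 8 genes of the fasting response, 1 passed as higher (Pdk4, change 1.87) and 1 as lower (Igfbp1, change -2.50). Pdk4 did not pass without soy 1, soy 2 or soy 3 (limma adjusted p 0.062, 0.069 and 0.053), and Igfbp1 did not without control 1, control 2, soy 1 or soy 2 (0.058, 0.085, 0.070 and 0.108). The part of clock, temperature and feeding in the heat shock values was not tested.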

How the data were processed

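The authors deposited, per the file headers, Agilent Feature Extraction 11.5.1.1 output of 6 single-colour arrays, with the median intensity of each spot and its background and a processed signal intensity, and a table of quantile-aligned log2 values. Median intensities were corrected with normexp (offset 50), quantile normalized, log2 transformed and, once outlier spots had been dropped, averaged per probe. Soy and control were compared over 56605 probes with limma 3.58.1 in R 4.3.3 (lmFit, eBayes, Benjamini-Hochberg method), and the code was tested on simulated data. Gene symbols came from RefSeq accessions (58.3% of probes). The arrays were designed on mm9, so promoter coordinates are not probe positions.

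The members and lists were chosen with earlier results of these data known. Values on every array are given for members that passed, for members without overlap at an unadjusted p under 0.05, and for the 3 members of each role with the smallest p. Values of Hspa5 and Hspa1a, the dim probes and the sequences shown were chosen after being seen. Of the other pathway genes, those that passed and the 2 with the smallest p in each list are named, and Cirbp, Rbm3 and the marker genes are named beside them. A listed marker is not reported here and was left out of its list. The replicates are separate mice. Replicate numbers did not pair the arrays (correlations of deviations 0.12, -0.06 and 0.10). The alternatives were uncorrected medians, normexp with offset 16, cyclic loess, a 75th percentile shift of normexp values or of processed signals, deposited log2 values, dim probes left out, outlier spots kept, trend and robust eBayes, probe means, slide or replicate number as a block, adjusted p alone, wider lists and each array left out. Tables were made with Python 3.11.15 and pandas 2.3.3, and plots with matplotlib 3.10.9.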

Additional observations from a re-analysis of the deposited data

How the results depend on the processing

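No member passed under any of the 18 alternative fits or by adjusted p alone, so the count of 0 members did not depend on a setting. The count of genes passing over the whole array did. Against 105 genes (66 higher and 39 lower), it was 41 with offset 16, 160 with the 75th percentile shift of normexp values, 278 among probes well above background, 164 with trend and robust eBayes, 13 with the slide as a block and 17 to 116 with 1 array left out. The processed signal gave 4612, of which 4120 were higher, and the cause was not tested. Replicate numbers did not pair the arrays, and with the replicate block 45 genes passed (27 higher, 18 lower) and no call on a member changed. The 75th percentile shift moved the median of all genes to 0.11, from which the cytosolic genes stood at -0.55 and the ER chaperones at -0.18.

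The median of the cytosolic heat shock genes was negative in every setting, at -0.52 to -0.27 except on slide 1 without control 1, where it was -0.094. With any 1 array left out 7 or 8 of them lay lower without overlap, against 15.1% to 17.3% of all genes. Both of these were added after seeing the data. The median of the ER chaperones ran from -0.12 to 0.02 with 1 array left out, the positive value being without control 3, and was -0.20 within slide 3. Over all 25 ER and 15 heat shock members the medians were -0.06 and -0.34.

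Of 720 values of single members, 683 kept their direction and 37, in 15 members with a change of 0.31 or less in size, turned it. With 1 array left out the ranges were -0.15 to 0.063 for Hspa5, -0.11 to 0.089 for Hsp90b1, -0.10 to 0.19 for Pdia3, -0.10 to 0.20 for Calr, -0.18 to 0.00062 for Dnajb11, -0.18 to 0.024 for Dnajc3, -0.19 to 0.31 for Hyou1, -0.19 to 0.055 for Manf, -0.16 to 0.060 for Ern1, -0.11 to 0.014 for Sel1l, -0.089 to 0.24 for Hsp90aa1, -0.21 to 0.19 for Hsp90ab1, -0.32 to 0.17 for Hspa4l and -0.19 to 0.89 for Hspb1. With the slide as a block Pdia3 was -0.12, Calr -0.10, Hyou1 -0.15, Sel1l 0.0090 and Hsp90aa1 -0.065. With the mean of a gene's probes Hspa5 was 0.060, Hyou1 -0.034, Sel1l 0.19 and Hspa4l 0.020, and with the processed signal Sec61b was 0.0034. The number of arrays, 3 in each group, limits the precision.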
